A study of Saccharomyces cerevisiae with 12 samples.

Results

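The genes described here are the 10 core glycolytic genes of Saccharomyces cerevisiae that lie between glucose-6-phosphate and phosphoenolpyruvate: PGI1, PFK1, PFK2, FBA1, TDH1, TDH2, TDH3, GPM1, ENO1, and ENO2. They were found by systematic name in a table of 7126 genes, and all 10 were present. Levels were measured by sequencing of RNA from aerobic, glucose-limited chemostats, in which the dilution rate sets the growth rate of the cells. Groups were the evolved strains B184 and MH34 and the original strain AAC, each at dilution rates of 0.2/h and 0.1/h, with 2 libraries labelled as biological replicates in each of the 6 groups. The strains are of the CEN.PK background (MATa SUC2), with most of the host triose phosphate isomerase gene TPI1 replaced by a loxP-KanMX4-loxP cassette. All of them carry the multicopy plasmid pAlphaAmyCPOT, on which α-amylase with the alpha factor leader is expressed from the TPI1 promoter and the POT1 gene of Schizosaccharomyces pombe supplies triose phosphate isomerase as the selection marker. MH34 was isolated from AAC, and B184 from MH34, after UV mutagenesis, so that each evolved strain is a single isolate. The labels give protein productivity as high for B184, medium for MH34, and low for AAC. The paper's own chemostat measurements kept this order at 0.2/h, where B184 was somewhat above MH34 in α-amylase productivity. At 0.1/h the order of these strains was reversed, with B184 below MH34. The paper places both evolved strains above AAC at each rate. At 0.1/h, the bioreactors of MH34 and B184 also received ethanol against oscillations, which is not named for AAC. Its effect cannot be told apart from the strain in comparisons with AAC at 0.1/h, nor from the dilution rate within MH34 and B184.

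In glycolysis, phosphoglucose isomerase (PGI1) forms fructose-6-phosphate, which phosphofructokinase, a complex of α subunits (PFK1) and β subunits (PFK2), phosphorylates in a step that is irreversible in the cell. Aldolase (FBA1) then splits the sugar into triose phosphates, and glyceraldehyde-3-phosphate dehydrogenase (TDH1, TDH2, and TDH3), phosphoglycerate kinase, phosphoglycerate mutase (GPM1), and enolase (ENO1 and ENO2) carry the carbon to phosphoenolpyruvate. Except for phosphofructokinase, these enzymes also run in the opposite direction when yeast makes sugar phosphates from ethanol. Glycolytic mRNAs are among the most abundant in yeast, and their transcription depends on the activator Gcr1 with its partner Gcr2 and on the DNA-binding protein Rap1.

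Totals ranged from 6040221 to 10785960 counts per library, and each of the 10 genes held between 1932 and 112208 counts in a library. TPI1, most of which is deleted, was still given 132 to 637 counts per library. Counts on chromosome III, which holds none of the 10 genes, made up 4.06% to 4.36% of the libraries of the evolved strains and 2.16% to 2.22% of the AAC libraries. For these 10 genes, the replicates of AAC at 0.2/h stood apart from each other. Replicate 1 was above replicate 2 for 10 of 10 genes, with a median log2 difference of 0.37. The median absolute difference over all genes of the same pair was 0.13. Which of these libraries is the unusual one cannot be told. In B184 at 0.1/h, replicate 2 was the higher for 9 of 10. Counts give each mRNA relative to the rest of its library, so that a lower share and less of the mRNA per cell cannot be told apart. The labels do not say what separates the biological replicates, and p-values therefore measure the spread between these libraries.

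Each of the 10 genes has a single exon in the R64 annotation, and none overlaps another gene. The 3 TDH genes and the enolase pair are near-identical copies, which matters for how reads are counted. TDH2 and TDH3 differed at 42 of 999 coding bases, which is 95.8% identity, and their longest identical stretch was 173 bases. TDH1 was more distant, with 90.2% identity to TDH2 and 88.9% identity to TDH3. ENO1 and ENO2 differed at 68 of 1314 bases, which is 94.8% identity, with a longest identical stretch of 112 bases. Of all 50-base stretches, 31.3% in TDH2, 24.4% in TDH3, 15.7% in TDH1, and 23.6% in each enolase gene were found elsewhere in the genome, and of all 150-base stretches 2.82% in TDH2 and TDH3 and none in the other 8 genes. For PGI1, PFK1, PFK2, FBA1, and GPM1, no 50-base stretch was found elsewhere. How reads shared between copies were counted is not given in the sources used here, so the split of counts within the TDH and ENO families is uncertain. The stretches in which the copies of each family differ most are given here 5′ to 3′ from the RefSeq R64 genome. Reads that span a whole stretch can be assigned to a single gene. The stretches are coding bases 64 to 123 of the TDH genes and 340 to 399 of the enolase genes. Capitals mark the 21 and 13 positions that are not the same in all copies. Of the 21 in the TDH genes, TDH2 and TDH3 differ at 12 and share the base at the others.
TDH1 (chrX:338334-338393, plus strand): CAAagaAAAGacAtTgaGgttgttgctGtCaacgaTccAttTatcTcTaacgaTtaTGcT
TDH2 (chrX:454559-454618, minus strand): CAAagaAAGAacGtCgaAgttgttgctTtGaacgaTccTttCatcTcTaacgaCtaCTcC
TDH3 (chrVII:883688-883747, minus strand): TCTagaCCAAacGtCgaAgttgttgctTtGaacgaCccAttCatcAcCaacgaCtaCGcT
ENO1 (chrVII:1001266-1001325, plus strand): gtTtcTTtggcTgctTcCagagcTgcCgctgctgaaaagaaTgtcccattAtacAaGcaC
ENO2 (chrVIII:451666-451725, plus strand): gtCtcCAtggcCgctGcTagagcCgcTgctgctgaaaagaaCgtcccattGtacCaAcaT

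Levels are given as FPKM, counts scaled by exon length and by the library total, and for every gene the values of replicates 1 and 2 stand in that order. PGI1 (YBR196C, chromosome II, 612236 to 613900) had 726 and 736 FPKM in B184, 718 and 664 FPKM in MH34, and 781 and 648 FPKM in AAC at 0.2/h. Its levels at 0.1/h were 391 and 419 FPKM in B184, 777 and 783 FPKM in MH34, and 483 and 460.5 FPKM in AAC. At 0.2/h, the AAC libraries of PGI1 lay above and below all evolved libraries, whereas at 0.1/h the MH34 libraries were the highest, the B184 libraries the lowest, and no groups overlapped. PFK1 (YGR240C, chromosome VII, 970771 to 973734) had 229 and 224 FPKM in B184, 223 and 219 FPKM in MH34, and 239 and 215 FPKM in AAC at 0.2/h, and 209 and 217 FPKM in B184, 207 and 205 FPKM in MH34, and 239.9 and 227 FPKM in AAC at 0.1/h. PFK2 (YMR205C, chromosome XIII, 671887 to 674766) had 175 and 172 FPKM in B184, 175 and 166 FPKM in MH34, and 178 and 155 FPKM in AAC at 0.2/h, and 163 and 179.6 FPKM in B184, 169.6 and 175 FPKM in MH34, and 198 and 205 FPKM in AAC at 0.1/h. Both phosphofructokinase subunits were nearly flat, with the AAC libraries at 0.1/h above the 4 evolved libraries at that rate. FBA1 (YKL060C, chromosome XI, 326408 to 327487) had 6088 and 5900.4 FPKM in B184, 5356 and 5184 FPKM in MH34, and 7286 and 5295 FPKM in AAC at 0.2/h. Its levels at 0.1/h were 2583 and 2544 FPKM in B184, 3789 and 3900.3 FPKM in MH34, and 5921 and 5966 FPKM in AAC. For FBA1, the higher AAC library was the highest at 0.2/h and the lower one fell within the evolved libraries, whereas at 0.1/h the 3 strains did not overlap and B184 was the lowest.

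The 3 TDH genes differed in level and in pattern. TDH3 (YGR192C, chromosome VII, 882812 to 883810), the main glyceraldehyde-3-phosphate dehydrogenase gene, had 9126 and 9001 FPKM in B184, 8500.4 and 7978 FPKM in MH34, and 11456 and 9209 FPKM in AAC at 0.2/h. The corresponding levels at 0.1/h were 3061 and 3418 FPKM in B184, 7403 and 7119 FPKM in MH34, and 4667 and 4506 FPKM in AAC. TDH3 was therefore highest in MH34 and lowest in B184 at 0.1/h, without overlap, whereas at 0.2/h the AAC libraries were the highest. TDH2 (YJR009C, chromosome X, 453683 to 454681) had 1198 and 1193 FPKM in B184, 934 and 975 FPKM in MH34, and 2364 and 1563 FPKM in AAC at 0.2/h. TDH2 at 0.1/h had 277 and 336 FPKM in B184, 515 and 495 FPKM in MH34, and 1552 and 1447 FPKM in AAC. At both rates, each AAC library of TDH2 was above all libraries of the evolved strains. TDH1 (YJL052W, chromosome X, 338271 to 339269), the form associated with slow growth and stationary phase, had 1423 and 1466 FPKM in B184, 1799.6 and 982 FPKM in MH34, and 2498 and 1423 FPKM in AAC at 0.2/h. TDH1 at 0.1/h had 1637 and 1954 FPKM in B184, 3277 and 3169.6 FPKM in MH34, and 2424 and 2985 FPKM in AAC. Replicates of TDH1 were far apart in MH34 and in AAC at 0.2/h, and the ranges of all 3 strains overlapped at that rate, whereas at 0.1/h they did not and MH34 was the highest.

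GPM1 (YKL152C, chromosome XI, 163642 to 164385) had 9833 and 9665 FPKM in B184, 9389 and 8651 FPKM in MH34, and 14708 and 10628 FPKM in AAC at 0.2/h, and 4009 and 4456 FPKM in B184, 9148 and 8854 FPKM in MH34, and 6965 and 6402 FPKM in AAC at 0.1/h. As for TDH3, AAC was the highest at 0.2/h and MH34 at 0.1/h, and the 3 strains did not overlap at 0.1/h. ENO1 (YGR254W, chromosome VII, 1000927 to 1002240) had 1346 and 1349 FPKM in B184, 1631 and 1024 FPKM in MH34, and 2797 and 2069.9 FPKM in AAC at 0.2/h. ENO1 at 0.1/h had 1048 and 1127 FPKM in B184, 2817 and 2741 FPKM in MH34, and 1312 and 1617 FPKM in AAC. The MH34 libraries at 0.1/h were close to the higher AAC library at 0.2/h, and the 3 strains did not overlap at 0.1/h. ENO2 (YHR174W, chromosome VIII, 451327 to 452640), the enolase that glucose induces, had 2635 and 2559.8 FPKM in B184, 2242 and 2536 FPKM in MH34, and 4263 and 3756 FPKM in AAC at 0.2/h, and 697 and 774 FPKM in B184, 1346 and 1332 FPKM in MH34, and 2034 and 1624 FPKM in AAC at 0.1/h. Each AAC library of ENO2 was above all evolved libraries of the same rate, and at 0.1/h the 3 strains did not overlap.

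**Figure D1:**
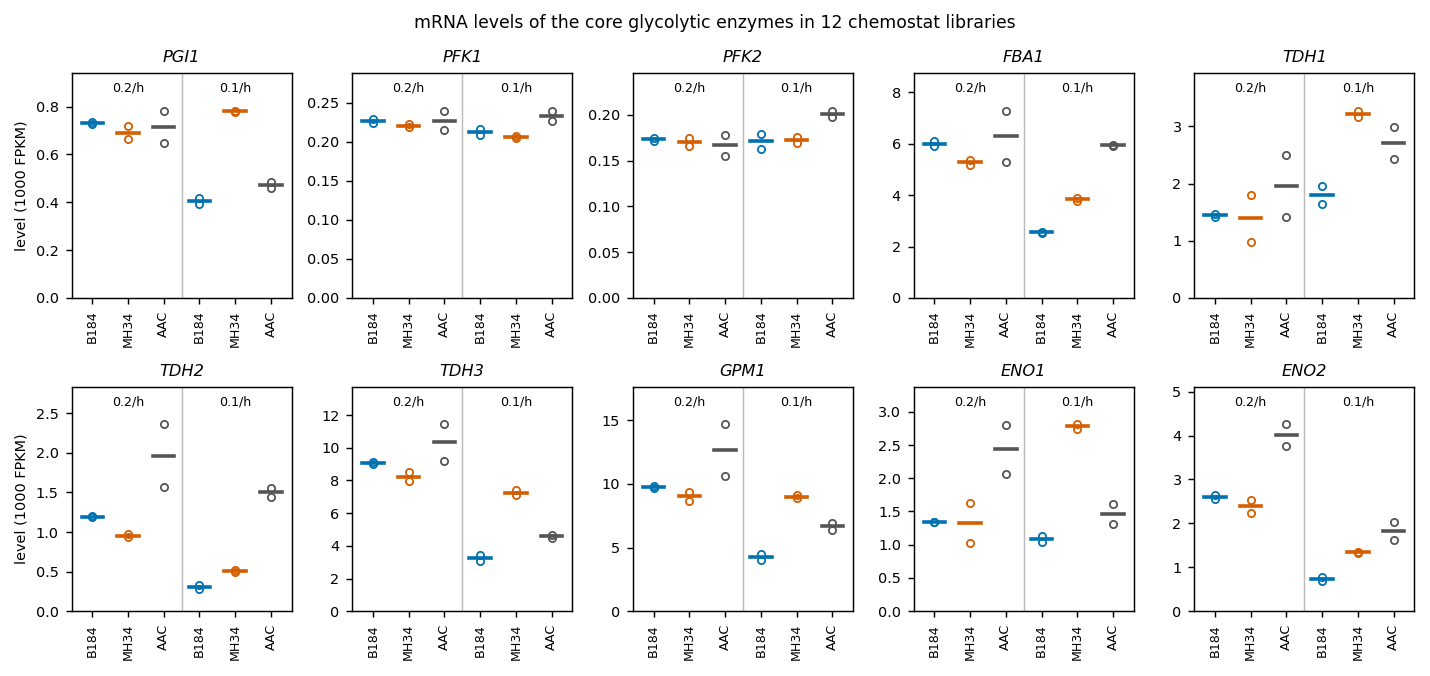
Level of each gene in 1000 FPKM (vertical axis, from 0) in the 12 libraries, with circles for libraries and lines for group means, and B184, MH34, and AAC at 0.2/h left of the same at 0.1/h. PFK1 lies between 205 and 239.9 FPKM throughout, whereas TDH2 and ENO2 are lowest in B184 at 0.1/h, and at that rate TDH3, GPM1, and ENO1 are highest in MH34.

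By mean FPKM, GPM1 was the highest and PFK2 the lowest of the 10 genes in all 6 groups. TDH3 and FBA1 were among the 3 highest in all 6, and PFK1 was next to the lowest in all 6. GPM1 and TDH3 overlapped in AAC at 0.2/h, as did the neighbours ENO1, TDH2, and TDH1 there, TDH2 and ENO1 in AAC at 0.1/h, and TDH1 and ENO1 in MH34 at 0.2/h. The other neighbours in each order did not overlap. TDH1 ranked 4 of 10 in all strains at 0.1/h and lower in the order at 0.2/h. TDH2 was above PGI1 at 0.2/h in all strains and in AAC at 0.1/h, but below PGI1 in MH34 and B184 at 0.1/h. The 10 genes together took 3.32% and 3.27% in B184, 3.14% and 2.89% in MH34, and 4.69% and 3.56% in AAC of all counts at 0.2/h. At 0.1/h they took 1.48% and 1.61% in B184, 2.99% and 2.93% in MH34, and 2.67% and 2.64% in AAC. The share was lowest in B184 at 0.1/h, and the ranges of the MH34 libraries at both rates overlapped.

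The first question was how each gene followed the dilution rate within a strain. Fold changes are of the faster over the slower rate, and a gene was called where its adjusted p, over all genes tested, was under 0.05. In B184, 6 of the 10 genes were higher at the faster rate and none was lower, where 66.6% of all 6044 tested genes passed in either direction with 33.9% higher and 32.7% lower. The median log2 fold change was 1.12 over the 10 genes and 0.01 over all genes tested. TDH2 was 4.17-fold higher (log2 fold change 2.06, SE 0.18, edgeR adjusted p = 2.56e-06). ENO2 was 3.77-fold higher (log2 fold change 1.92, SE 0.14, edgeR adjusted p = 5.22e-07). TDH3 (1.58, SE 0.15, edgeR adjusted p = 4.28e-06), FBA1 (1.32, SE 0.16, edgeR adjusted p = 2.45e-05), GPM1 (1.30, SE 0.17, edgeR adjusted p = 4.67e-05), and PGI1 (0.95, SE 0.12, edgeR adjusted p = 2.94e-05) were also higher. Their libraries at 0.2/h did not overlap those at 0.1/h. ENO1 did not pass (0.40, SE 0.23, edgeR adjusted p = 0.138), nor did TDH1, PFK1, and PFK2 (−0.22, 0.19, and 0.11). ENO1 passed without MH34 0.2/h replicate 1 or 2 (0.41 in both, edgeR adjusted p = 0.0498 and 0.0471).

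AAC, for which no ethanol addition is named, also had 6 of 10 genes higher at 0.2/h and none lower, beside 68.2% of all genes called, 32.7% higher and 35.5% lower. The median was 0.65 over the 10 genes and −0.03 over all. TDH3 (2.50-fold, log2 fold change 1.32, SE 0.15, edgeR adjusted p = 1.61e-05) and ENO2 (2.44-fold, log2 fold change 1.29, SE 0.14, edgeR adjusted p = 9.03e-06) had the largest differences, followed by GPM1 (1.08, SE 0.17, edgeR adjusted p = 0.000189), ENO1 (0.88, SE 0.23, edgeR adjusted p = 0.00554), PGI1 (0.75, SE 0.12, edgeR adjusted p = 0.000174), and TDH2 (0.54, SE 0.18, edgeR adjusted p = 0.0171). FBA1, the only gene called in B184 but not in AAC, had a log2 fold change of 0.23 (edgeR adjusted p = 0.207). TDH2 lost its call without AAC 0.2/h replicate 1 (0.18, edgeR adjusted p = 0.26) or without AAC 0.1/h replicate 1 or 2 (0.57 and 0.52, adjusted p = 0.0583 and 0.0884), and ENO1 without replicate 1 at 0.2/h (0.62, adjusted p = 0.0516) or at 0.1/h (0.72, adjusted p = 0.0562), whereas FBA1 passed without AAC 0.2/h replicate 2 (0.47, adjusted p = 0.0143). With counts scaled by library totals alone, 5 genes were higher and 1, PFK2, was lower (−0.27, adjusted p = 0.0184), and the median of all genes moved to −0.18.

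In MH34, the direction depended on the isozyme. ENO2 (log2 fold change 0.76, SE 0.13, edgeR adjusted p = 0.00345) and TDH2 (log2 fold change 0.84, SE 0.18, edgeR adjusted p = 0.00758) were higher at 0.2/h, whereas ENO1 (log2 fold change −1.13, SE 0.23, edgeR adjusted p = 0.00681) and TDH1 (log2 fold change −1.28, SE 0.33, edgeR adjusted p = 0.0236) were lower. Thus 2 of 10 genes were higher and 2 lower, beside 26.8% of all genes called, 13.5% higher and 13.3% lower. The median was −0.02 over the 10 genes and −0.01 over all. TDH3 and GPM1, which were higher at 0.2/h in the other strains, had log2 fold changes of 0.11 (95% interval −0.22 to 0.44) and −0.07 (−0.44 to 0.30). The call of TDH1 was lost without MH34 0.2/h replicate 2 (−0.88, edgeR adjusted p = 0.104) or without MH34 0.1/h replicate 1 or 2 (adjusted p = 0.104 and 0.0903), and that of TDH2 without either MH34 0.1/h replicate (0.87 and 0.82, adjusted p = 0.0593 and 0.0614). FBA1 (0.38) passed without AAC 0.2/h replicate 1 or 2 (adjusted p = 0.0352 and 0.0365).

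The second question was how the evolved strains differed from AAC at the same rate. The comparisons of B184 and MH34 share the AAC libraries, and each is given by its own values. At 0.2/h, B184 had lower TDH2, GPM1, ENO1, and ENO2, which is 4 of 10 genes lower and none higher, beside 36.2% of all genes called, 18.4% higher and 17.7% lower. The median was −0.38 over the 10 genes and −0.02 over all. ENO1 was 1.93-fold lower (log2 fold change −0.95, SE 0.23, edgeR adjusted p = 0.00888), and TDH2 was 1.76-fold lower (log2 fold change −0.81, SE 0.18, edgeR adjusted p = 0.00491). ENO2 (−0.72, SE 0.13, edgeR adjusted p = 0.00209) and GPM1 (−0.47, SE 0.17, edgeR adjusted p = 0.0475) were lower as well. All 4 had lower FPKM in each B184 library than in either AAC library. The calls of GPM1 and ENO1 rested on AAC 0.2/h replicate 1, without which they had −0.19 and −0.68 (edgeR adjusted p = 0.406 and 0.0652), and were also lost without B184 0.2/h replicate 1 (GPM1 −0.49, adjusted p = 0.167; ENO1 −0.95, adjusted p = 0.0573) or 2 (GPM1 −0.46, adjusted p = 0.186; ENO1 −0.95, adjusted p = 0.0588). GPM1 was further lost without any 1 of the MH34 or B184 libraries at 0.1/h (adjusted p = 0.0653 to 0.0756). When only the compared groups were fitted, 2 genes, ENO1 and ENO2, were called, and TDH2 (−0.79, adjusted p = 0.0591) and GPM1 (−0.46, adjusted p = 0.079) were not.

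MH34 at 0.2/h had lower TDH2, TDH3, GPM1, ENO1, and ENO2 than AAC, 5 of 10 genes and none higher, beside 33.1% of all genes called, 17.4% higher and 15.7% lower. The median was −0.53 over the 10 genes and −0.01 over all. TDH2 was 2.24-fold lower (log2 fold change −1.16, SE 0.18, edgeR adjusted p = 0.000651), ENO1 1.99-fold (log2 fold change −0.99, SE 0.23, edgeR adjusted p = 0.00799), and ENO2 1.83-fold (log2 fold change −0.87, SE 0.13, edgeR adjusted p = 0.000717). GPM1 (−0.61, SE 0.17, edgeR adjusted p = 0.0177) and TDH3 (−0.45, SE 0.15, edgeR adjusted p = 0.0399) differed less. TDH1 was at −0.61 with an SE of 0.33, the widest of the 10 genes, and was not called. Without AAC 0.2/h replicate 1, TDH3, GPM1, and ENO1 were not called (−0.25, −0.32, and −0.72, edgeR adjusted p = 0.277, 0.159, and 0.0598), and without MH34 0.2/h replicate 2 neither were TDH3 (−0.36, adjusted p = 0.16) and GPM1 (−0.52, adjusted p = 0.0953). TDH3 also lost its call without MH34 0.2/h replicate 1, either MH34 library at 0.1/h, or any B184 library (adjusted p = 0.0547 to 0.0722). Conversely, FBA1 passed without AAC 0.2/h replicate 2 (−0.61, adjusted p = 0.0114), as did TDH1 without that library (−0.98, adjusted p = 0.0495) or without MH34 0.2/h replicate 1 (−1.15, adjusted p = 0.0301), and fitting only the compared groups left 2 genes, TDH2 and ENO2, called. TDH2 and ENO2 were called lower in both evolved strains with any 1 library left out of the fit of all groups.

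At 0.1/h, B184 had 5 of 10 genes lower than AAC and none higher, beside 36.9% of all genes called, 16.5% higher and 20.4% lower. The median was −0.59 over the 10 genes and −0.04 over all. TDH2 was 5.03-fold lower (log2 fold change −2.33, SE 0.18, edgeR adjusted p = 6.29e-06), ENO2 2.55-fold (log2 fold change −1.35, SE 0.14, edgeR adjusted p = 3.20e-05), and FBA1 2.38-fold (log2 fold change −1.25, SE 0.16, edgeR adjusted p = 0.000174). GPM1 (−0.70, SE 0.17, edgeR adjusted p = 0.00838) and TDH3 (−0.54, SE 0.15, edgeR adjusted p = 0.016) were lower by less. ENO1 (−0.47, SE 0.23, edgeR adjusted p = 0.126) and PFK2 (−0.27, SE 0.10, edgeR adjusted p = 0.0528) did not pass. The calls of GPM1 and TDH3 were lost without B184 0.1/h replicate 1 (−0.61 and −0.45, edgeR adjusted p = 0.0737 and 0.12), while ENO1 passed without MH34 0.2/h replicate 1 or 2 (−0.47, adjusted p = 0.0473 and 0.0459) and PFK2 without AAC 0.2/h replicate 1 or 2 (−0.27, adjusted p = 0.0366 in both).

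MH34 at 0.1/h had genes on both sides of AAC. PGI1 (1.78-fold, log2 fold change 0.83, SE 0.12, edgeR adjusted p = 7.67e-05), TDH3 (1.70-fold, log2 fold change 0.77, SE 0.15, edgeR adjusted p = 0.000802), GPM1 (1.45-fold, log2 fold change 0.53, SE 0.17, edgeR adjusted p = 0.015), and ENO1 (2.04-fold, log2 fold change 1.03, SE 0.23, edgeR adjusted p = 0.00222) were higher. TDH2 was 2.76-fold lower (log2 fold change −1.46, SE 0.18, edgeR adjusted p = 2.71e-05), and FBA1 (−0.52, SE 0.16, edgeR adjusted p = 0.0118) and ENO2 (−0.34, SE 0.13, edgeR adjusted p = 0.0399) were lower as well. The 4 higher and 3 lower genes compare with 35.5% and 33.3% of all genes, 68.8% in either direction, so that the share of called genes was near that of the genome. The median was 0.14 over the 10 genes and 0.02 over all. GPM1 and FBA1 lost their calls without MH34 0.1/h replicate 1 (0.52 and −0.50, edgeR adjusted p = 0.0682 and 0.0699) or 2 (0.56 and −0.55, adjusted p = 0.0521 and 0.0512). ENO2 lost its call without AAC 0.1/h replicate 1 (−0.19, adjusted p = 0.22), without either MH34 0.1/h replicate (adjusted p = 0.13 and 0.138), or without any B184 library (adjusted p = 0.0521 to 0.0668).

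**Figure D2:**
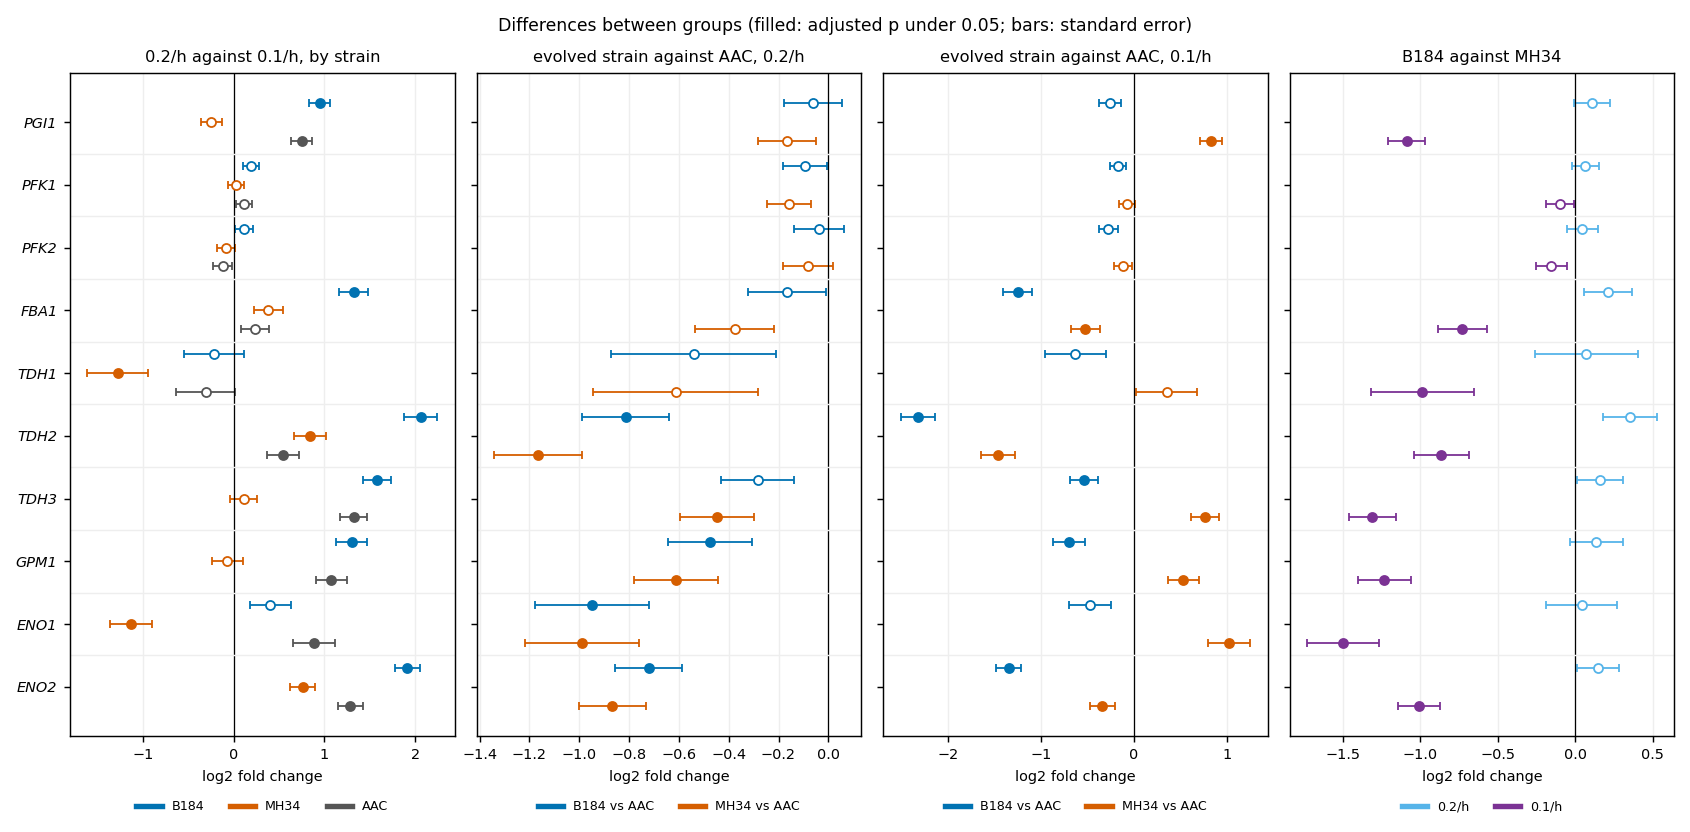
Log2 fold change of each gene (horizontal axis) with its standard error (bars), for 0.2/h against 0.1/h in each strain, each evolved strain against AAC at each rate, and B184 against MH34; filled points passed an adjusted p of 0.05 and open points did not. TDH2 and ENO2 are left of 0 in all 4 comparisons with AAC, whereas PGI1, TDH3, GPM1, and ENO1 are right of 0 for MH34 at 0.1/h and left of it for B184.

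Between the evolved strains, none of the 10 genes was called at 0.2/h, and the intervals of their differences are given instead. Of the 10 genes, 0 were called by edgeR and 0 by DESeq2, and 0 had an unadjusted p under 0.05, beside 0.0165% of all genes called and 204 of all genes with an unadjusted p under 0.05, and DESeq2 called 2 of all genes. Log2 fold changes of B184 over MH34 lay between 0.04 and 0.35, with the upper end for TDH2 (95% interval −0.04 to 0.74). For TDH1 and ENO1 the intervals were −0.65 to 0.80 and −0.46 to 0.54. At 0.1/h, in contrast, 8 of 10 genes were lower in B184 than in MH34 and none higher, beside 62.6% of all genes called, 29.1% higher and 33.6% lower. The median was −0.998 over the 10 genes and −0.04 over all. ENO1 was 2.82-fold lower (log2 fold change −1.498, SE 0.23, edgeR adjusted p = 0.000219), TDH3 2.48-fold (log2 fold change −1.31, SE 0.15, edgeR adjusted p = 2.07e-05), and GPM1 2.35-fold (log2 fold change −1.23, SE 0.17, edgeR adjusted p = 8.01e-05). PGI1 (−1.09), ENO2 (−1.01), TDH1 (−0.99), TDH2 (−0.87), and FBA1 (−0.73) were lower with edgeR adjusted p-values between 1.32e-05 and 0.0279. Both groups received ethanol, and for each of the 8 genes both B184 libraries were below both MH34 libraries. The call of TDH1 was lost without AAC 0.1/h replicate 2 (−0.99, adjusted p = 0.0504), B184 0.1/h replicate 1 or 2 (−0.85 and −1.14, adjusted p = 0.132 and 0.059), or MH34 0.1/h replicate 1 or 2 (−0.97 and −1.01, adjusted p = 0.0872 and 0.0766).

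Phosphofructokinase is the irreversible step among these enzymes. PFK1 and PFK2 were called in 0 of the 9 pairwise comparisons with edgeR and in 0 with DESeq2, and an unadjusted edgeR p under 0.05 was reached 0 times by PFK1 and 1 time by PFK2, whereas each of the other 8 genes was called in 2 to 8 of them, for 45 calls in all. The share of all tested genes called by edgeR ran from 0.0165% (B184 against MH34 at 0.2/h) to 68.8% (MH34 against AAC at 0.1/h) over these comparisons. Across the 9 comparisons, log2 fold changes of PFK1 lay between −0.17 and 0.19, with 95% intervals that reached from −0.37 to 0.39. For PFK2 they lay between −0.27 and 0.11, with intervals from −0.50 to 0.33. Between the lowest and the highest group mean, PFK2 spanned 0.28 and PFK1 0.28 on the log2 CPM scale, where CPM is the count scaled to a common library size after TMM normalization. TDH2 spanned 2.84 and ENO2 2.63, the widest of the 10. When only the compared groups were fitted, PFK1 was called higher at 0.2/h in B184 (0.20, edgeR adjusted p = 0.00784), and with library totals PFK2 was called lower in MH34 than in AAC at 0.1/h (−0.22, edgeR adjusted p = 0.0456).

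Whether a strain effect depended on the rate was tested as the strain effect at 0.2/h minus that at 0.1/h. For MH34 against AAC, 5 of 10 genes had a lower effect at 0.2/h and none a higher one, beside 53.1% of all genes called, 26.6% higher and 26.6% lower. ENO1, TDH3, and GPM1 were below AAC in MH34 at 0.2/h and above it at 0.1/h, PGI1 was above it at 0.1/h and not called at 0.2/h, and the difference of the effects was largest for ENO1 (−2.02, SE 0.32, edgeR adjusted p = 0.000473). For B184 against AAC, 2 genes had a higher effect at 0.2/h and none a lower one, beside 5.49% of all genes called, 3.26% higher and 2.23% lower. They were TDH2 (1.52, SE 0.25, edgeR adjusted p = 0.00715) and FBA1 (1.09, SE 0.22, edgeR adjusted p = 0.0186). TDH2 was further below AAC at 0.1/h than at 0.2/h, whereas FBA1 was below AAC at 0.1/h and not called at 0.2/h. For B184 against MH34, 7 genes had a higher effect at 0.2/h and none a lower one, beside 51.9% of all genes called, 27.8% higher and 24.1% lower, with ENO1 again at the largest value (1.54, SE 0.32, edgeR adjusted p = 0.00243). FBA1 in B184 against AAC was not called without any 1 of the B184 libraries, 0.1/h replicate 1 or 2 (1.08 and 1.09) or 0.2/h replicate 1 or 2 (1.06 and 1.11), with p-values from 0.0688 to 0.0903.

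The balance of isozymes within the enolase and TDH families is given as the share of each gene in the family counts. ENO1 made up 33.8% and 34.5% in B184, 42.1% and 28.8% in MH34, and 39.6% and 35.5% in AAC of the enolase counts at 0.2/h. At 0.1/h its share was 60.04% and 59.3% in B184, 67.7% and 67.3% in MH34, and 39.2% and 49.9% in AAC. In the evolved strains at 0.1/h, the ENO1 share was above that of all libraries at 0.2/h, whereas the AAC libraries at 0.1/h overlapped the range at 0.2/h. TDH3 made up 77.7% and 77.2% in B184, 75.7% and 80.3% in MH34, and 70.2% and 75.5% in AAC of the TDH counts at 0.2/h, and 61.5% and 59.9% in B184, 66.1% and 66.0% in MH34, and 54.0% and 50.4% in AAC at 0.1/h. TDH1 made up 12.1% and 12.6% in B184, 16.0% and 9.89% in MH34, and 15.3% and 11.7% in AAC at 0.2/h, and 32.9% and 34.2% in B184, 29.3% and 29.4% in MH34, and 28.05% and 33.4% in AAC at 0.1/h. In all 3 strains, both libraries at 0.1/h had a higher TDH1 share and a lower TDH3 share than both libraries at 0.2/h. TDH2 made up 10.2% and 10.2% in B184, 8.31% and 9.81% in MH34, and 14.5% and 12.8% in AAC at 0.2/h, and 5.57% and 5.88% in B184, 4.60% and 4.59% in MH34, and 18.0% and 16.2% in AAC at 0.1/h. At 0.1/h, all 4 libraries of the evolved strains had a TDH2 share below that of either AAC library. These shares depend on how reads common to the copies were assigned, and they carry no test.

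**Figure D3:**
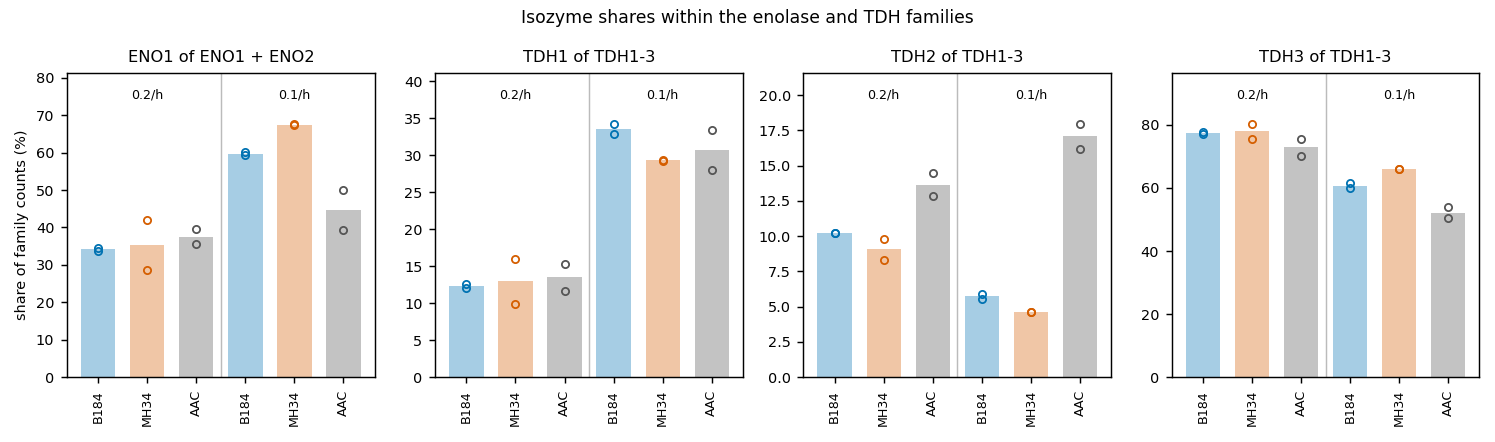
Share of family counts in percent (vertical axis, from 0) of ENO1 within ENO1 and ENO2, and of TDH1, TDH2, and TDH3 within the 3 TDH genes, with bars for group means and circles for libraries, and strains at 0.2/h left of those at 0.1/h. The TDH1 share is higher at 0.1/h than at 0.2/h in all 3 strains, and the ENO1 share is so without overlap in both evolved strains. The TDH2 share of AAC at 0.1/h is above that of the evolved strains.

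Sums over a family do not depend on how shared reads were split within it, though they do depend on any shared reads that were dropped in counting. The enolase sum was lower in both evolved strains at 0.2/h, in B184 (log2 fold change −0.80, SE 0.14, edgeR adjusted p = 0.00127) and in MH34 (log2 fold change −0.91, SE 0.14, edgeR adjusted p = 0.000597). At 0.1/h it was lower in B184 (log2 fold change −0.89, SE 0.14, edgeR adjusted p = 0.000605) and higher in MH34 (log2 fold change 0.43, SE 0.14, edgeR adjusted p = 0.0163) than in AAC. The TDH sum was lower in B184 at 0.1/h (log2 fold change −0.76, SE 0.17, edgeR adjusted p = 0.00608) and in MH34 at 0.2/h (log2 fold change −0.55, SE 0.17, edgeR adjusted p = 0.0308), and higher in MH34 at 0.1/h (log2 fold change 0.43, SE 0.17, edgeR adjusted p = 0.0452). In B184 at 0.2/h the TDH sum did not pass with edgeR (log2 fold change −0.38, SE 0.17, edgeR adjusted p = 0.106) but did with DESeq2 (−0.38, adjusted p = 0.0352). ENO2 and TDH2 were therefore below AAC in MH34 at 0.1/h while their families as a whole were above it. Between rates, both sums were higher at 0.2/h in B184 (TDH 1.23, ENO 1.21) and in AAC (TDH 0.85, ENO 1.12), with edgeR adjusted p-values between 1.66e-05 and 0.00113, and neither passed in MH34 (TDH −0.13, ENO −0.22). The higher enolase sum in MH34 at 0.1/h was not called without MH34 0.1/h replicate 1 or 2 (0.42 and 0.44, adjusted p = 0.0722 and 0.0594), nor the lower TDH sum in B184 at 0.1/h without B184 0.1/h replicate 1 (−0.65, adjusted p = 0.0621), while the TDH sum in B184 at 0.2/h passed without AAC 0.2/h replicate 2 (−0.60, adjusted p = 0.0281). Of the TDH sums in MH34 against AAC, the one at 0.1/h was lost without any 1 of the AAC and MH34 libraries at 0.1/h or of the B184 libraries (adjusted p = 0.0577 to 0.151), or with RLE size factors or library totals (0.40 and 0.32, adjusted p = 0.0503 and 0.0748), and the one at 0.2/h without AAC 0.2/h replicate 1 (−0.29, adjusted p = 0.242), MH34 0.2/h replicate 2 (−0.43, adjusted p = 0.152), either MH34 library at 0.1/h, or either B184 library at 0.2/h (adjusted p = 0.0535 to 0.0566). The phosphofructokinase sum was called in 0 of the 12 comparisons with edgeR and in 0 with DESeq2, and reached an unadjusted edgeR p under 0.05 in 0, whereas a fit of the compared groups only called it higher at 0.2/h in B184 (0.16, edgeR adjusted p = 0.0299).

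The stretch from 500 to 201 bases before each start codon was searched on both strands for the letters of elements that glycolytic promoters are known for. The motifs were CTTCC, the core bound by Gcr1, its variant CATCC, a 10-base core bound by Rap1 with 2 free positions, and CACGTG, an E-box of the kind bound by the glycolytic regulator Tye7. CTTCC was found in 7 of the 10 windows, beside 49.4% of 6000 such windows of the genome, and CATCC in 7 of 10, beside 32.9%. The Rap1 core was found upstream of GPM1 and ENO1, beside 1.45% of all windows, and the E-box upstream of TDH1 and TDH2, beside 4.35%. A Rap1 core with CTTCC within 30 bases, centre to centre, was found for ENO1 alone among the 10, beside 0.183% of all windows. In these 10 windows, no matches overlapped each other. The windows of PGI1, TDH1, and ENO2 cover part of the annotated genes YBR196C-A, YJL052C-A, and YHR173C. Matches are matches of letters only. The windows of the enolase and TDH genes are given 5′ to 3′ from RefSeq R64, because these isozymes differed in how they followed strain and rate, with capitals at the motifs or their reverse complements.
TDH1 (chrX:337771-338070, plus strand): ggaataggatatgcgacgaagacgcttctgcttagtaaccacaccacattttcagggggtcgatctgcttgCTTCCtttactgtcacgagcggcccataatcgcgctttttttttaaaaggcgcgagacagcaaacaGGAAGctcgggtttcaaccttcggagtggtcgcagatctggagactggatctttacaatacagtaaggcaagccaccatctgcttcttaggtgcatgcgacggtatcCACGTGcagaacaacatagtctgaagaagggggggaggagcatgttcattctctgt
TDH2 (chrX:454882-455181, minus strand): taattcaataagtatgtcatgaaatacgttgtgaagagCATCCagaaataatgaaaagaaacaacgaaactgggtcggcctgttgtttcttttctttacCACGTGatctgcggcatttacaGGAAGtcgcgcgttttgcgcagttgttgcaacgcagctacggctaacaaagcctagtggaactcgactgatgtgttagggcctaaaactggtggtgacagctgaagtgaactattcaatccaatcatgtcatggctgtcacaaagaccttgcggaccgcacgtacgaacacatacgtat
TDH3 (chrVII:884011-884310, minus strand): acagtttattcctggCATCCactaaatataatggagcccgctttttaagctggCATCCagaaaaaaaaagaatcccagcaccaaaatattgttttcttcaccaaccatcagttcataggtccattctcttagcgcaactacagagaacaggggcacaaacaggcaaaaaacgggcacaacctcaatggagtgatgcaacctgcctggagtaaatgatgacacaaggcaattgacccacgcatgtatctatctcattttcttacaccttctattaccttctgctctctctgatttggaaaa
ENO1 (chrVII:1000427-1000726, plus strand): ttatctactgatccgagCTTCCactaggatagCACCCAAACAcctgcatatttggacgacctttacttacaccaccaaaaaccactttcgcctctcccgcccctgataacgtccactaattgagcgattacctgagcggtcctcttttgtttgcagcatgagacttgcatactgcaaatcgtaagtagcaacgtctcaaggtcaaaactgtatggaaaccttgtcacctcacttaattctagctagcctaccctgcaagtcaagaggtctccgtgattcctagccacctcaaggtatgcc
ENO2 (chrVIII:450827-451126, plus strand): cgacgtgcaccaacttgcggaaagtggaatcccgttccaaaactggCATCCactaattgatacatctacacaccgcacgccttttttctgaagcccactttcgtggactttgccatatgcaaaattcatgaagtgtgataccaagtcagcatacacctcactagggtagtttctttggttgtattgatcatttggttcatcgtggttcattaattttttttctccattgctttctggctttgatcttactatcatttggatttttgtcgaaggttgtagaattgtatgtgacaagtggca

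Between the enolase genes, the ENO1 window held CTTCC, 483 to 479 bases before the start codon, and the Rap1 core, 468 to 459 bases before it, and the ENO2 window held CATCC alone. Among the TDH genes, the E-box lay 256 to 251 bases before the start codon of TDH1 and 401 to 396 bases before that of TDH2, and the TDH3 window held 2 copies of CATCC and no other motif searched. CTTCC and CATCC were both found in the windows of PGI1, PFK1, PFK2, and TDH2.

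**Figure D4:**
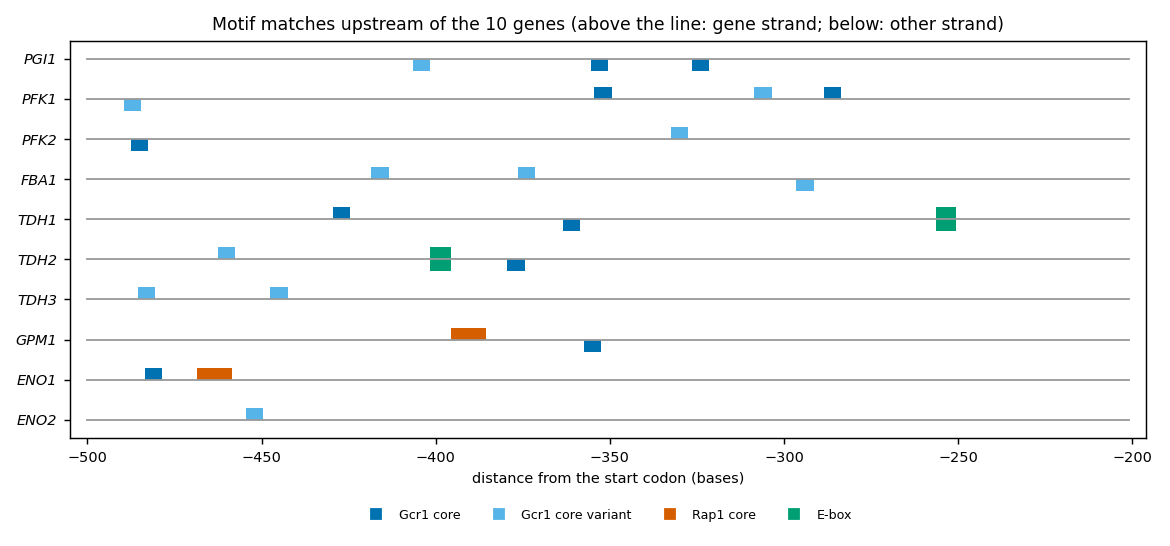
Position of motif matches (coloured blocks) against the distance in bases from the start codon (horizontal axis) for the 10 genes, with matches on the gene strand above the line, on the other strand below it, and on both for the palindromic E-box. The Gcr1 core is CTTCC and its variant CATCC, and only GPM1 and ENO1 carry the Rap1 core in this window.

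The other glycolytic genes tested, which were HXK1, HXK2, GLK1, and EMI2 for glucose phosphorylation, PGK1 for phosphoglycerate kinase, and CDC19 and PYK2 for pyruvate kinase, are given beside the 10 genes. Against AAC at 0.2/h, 4 of these 7 were higher and 1 was lower in B184, and 3 were higher and 1 was lower in MH34, beside 18.4% higher and 17.7% lower of all genes in B184 and 17.4% and 15.7% in MH34. The lower gene was CDC19, the main pyruvate kinase gene, in B184 (−0.61, SE 0.14, edgeR adjusted p = 0.00672) and in MH34 (−0.62, SE 0.14, edgeR adjusted p = 0.00664). HXK1, GLK1, and EMI2 were higher in both evolved strains, with log2 fold changes between 0.88 (EMI2 in MH34) and 2.91 (HXK1 in B184). At 0.1/h, 0 of the 7 were called in B184 with edgeR and 1 had an unadjusted p under 0.05, whereas MH34 had 2 higher and 1 lower, beside 36.9% of all genes called in B184 and 68.8% in MH34. Replicates 1 and 2 of AAC at 0.1/h were far apart for HXK1 (351 and 1196 FPKM), GLK1 (724 and 1398 FPKM), and EMI2 (138 and 239 FPKM). PGK1, which acts between the TDH enzymes and GPM1, was higher in MH34 at 0.1/h (1.42, SE 0.17, edgeR adjusted p = 1.78e-05), and HXK2 was higher as well (0.39, SE 0.13, edgeR adjusted p = 0.0204). PGK1 and GLK1 lie on chromosome III, of which the share of counts was raised in the evolved strains, and the part of this in their values was not tested. GLK1 also overlaps YCL042W, and its count is uncertain.

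Of 6 regulators of glycolytic genes, which were GCR1, GCR2, RAP1, TYE7, REB1, and ABF1, none was higher than in AAC in any of the 4 comparisons. At 0.1/h, 6 of 6 were lower in MH34 (median −0.57) and 4 of 6 in B184 (median −0.38). GCR1, the Gcr1 activator, was lower in both, in B184 (−0.48, SE 0.07, edgeR adjusted p = 0.000497) and in MH34 (−0.69, SE 0.07, edgeR adjusted p = 8.03e-06), and so was TYE7, in B184 (−0.91, SE 0.14, edgeR adjusted p = 0.00066) and in MH34 (−1.16, SE 0.14, edgeR adjusted p = 2.91e-05). At 0.2/h, 3 of 6 were lower in B184 and 2 of 6 in MH34, beside 17.7% and 15.7% of all genes. In MH34 at 0.1/h these lower regulators stood beside 4 of the 10 genes called higher (PGI1, TDH3, GPM1, and ENO1) and 3 called lower (FBA1, TDH2, and ENO2). Across the genome, genes called lower than AAC at 0.1/h made up 33.3% in MH34 and 20.4% in B184.

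Centred on their own means, the 10 genes together were lowest in B184 at 0.1/h (−0.81 on the log2 CPM scale) and highest in AAC at 0.2/h (0.55), with the other 4 groups between −0.01 and 0.16. GPM1 and FBA1 lay nearest to this mean profile, with root mean square differences of 0.19 and 0.22, and TDH2 and TDH1 the farthest, with 0.64 and 0.57. Of the 5533 other genes that averaged 50 or more counts per library, the 5 most like it over the 6 group means were HYP2 (0.056), GPP1 (0.080), RAS1 (0.087), YPL162C (0.102), and NSR1 (0.103), against a median of 0.484 over all ranked genes. These are descriptions over 6 points with no test.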

How the data were processed

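RNA of 12 chemostat libraries was sequenced in pairs of reads from stranded mRNA libraries. The authors mapped the reads to the Ensembl R64-1-1 genome with the nf-core pipeline and deposited raw counts per gene, without normalization. The submitters' processing notes name TopHat2 2.0.12, Cufflinks 2.2.1, and Subread 1.4.6, with no role. The strand setting and how reads with more than 1 match were handled are not given in the sources used here.

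Genes were matched to RefSeq R64 by systematic name (6048 of 7126). FPKM was computed from deposited counts, exon lengths, and library totals. Differences were tested with edgeR 4.0.16 (R 4.3.3) in 1 fit of the 6 groups with TMM normalization, filterByExpr (6044 genes kept, all 10 among them), and robust quasi-likelihood F-tests, and p-values were adjusted over those genes by the method of Benjamini and Hochberg, with a threshold of 0.05. Confidence intervals used 2.201 SE, and the median SE over all genes was 0.10 on the log2 scale at depths of 6040221 to 10785960 counts. Family sums were tested in the same way. A permutation test of 2 against 2 libraries cannot go below a p of 1 in 3, and none was used. Alternatives were RLE size factors, library totals, TMM without glycolytic genes, other filters on low counts, DESeq2 1.42.0, fits of the compared groups only, a replicate block, and leaving out each library. Scripts were tested on simulated data. The 10 genes, all of which are named, and the lists were chosen with earlier results of these data known. Named genes outside the 10 come from lists of pathway genes and regulators, or are the 5 genes most like the mean profile. Motif windows and sequences were read in Python 3.11.15.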

Additional observations from a re-analysis of the deposited data

Results flagged for a closer look

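The strain effect, as log2 fold change, differed between the dilution rates in 14 cases, each by a test of the difference itself (strain effect at 0.2/h minus that at 0.1/h, edgeR adjusted p under the threshold of 0.05). For MH34 against AAC, the difference was −0.996 for PGI1, −1.21 for TDH3, −1.15 for GPM1, −2.02 for ENO1, and −0.525 for ENO2. For B184 against AAC, it was 1.09 for FBA1 and 1.52 for TDH2. For B184 against MH34, it was 1.19 for PGI1, 0.94 for FBA1, 1.22 for TDH2, 1.47 for TDH3, 1.37 for GPM1, 1.54 for ENO1, and 1.16 for ENO2. The share of all genes called in these tests was 53.1% for MH34 against AAC, 5.49% for B184 against AAC, and 51.9% for B184 against MH34. The 3 tests share libraries. Ethanol was added to MH34 and B184 at 0.1/h, so that in the comparisons with AAC it cannot be told apart from the rate. For both strains it is named at 0.1/h only. In B184 against MH34, a different response to ethanol therefore cannot be told apart from a different response to the rate.

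The difference for ENO2 in MH34 against AAC was near the threshold (edgeR adjusted p = 0.0363). It was not called without AAC 0.1/h replicate 2, AAC 0.2/h replicate 1, MH34 0.1/h replicate 1 or 2, MH34 0.2/h replicate 1, or B184 0.2/h replicate 1 or 2 (adjusted p = 0.0612 to 0.127, log2 −0.53 to −0.39). It was also not called with library totals (−0.30, adjusted p = 0.193) or in a fit of the compared groups only (−0.50, adjusted p = 0.0991). Some genes outside these 14 passed with 1 library left out. They were ENO2 for B184 against AAC without AAC 0.1/h replicate 2 (0.76, adjusted p = 0.0309), TDH2 for MH34 against AAC without AAC 0.2/h replicate 1 (0.66, adjusted p = 0.0102), TDH1 for MH34 against AAC without AAC 0.2/h replicate 2 or MH34 0.2/h replicate 1 (−1.34 and −1.51), and TDH1 for B184 against MH34 without either AAC 0.2/h replicate or MH34 0.2/h replicate 1 (1.06 in the first 2 cases and 1.60 in the last).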

How the results depend on the processing

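Counts of the 10 genes called stayed within 1.5 times under RLE size factors, library totals, TMM without glycolytic genes, no filter on low counts, a minimum of 10 counts in every library, and DESeq2, and no call changed direction under these. Some single calls did change. Library totals lost TDH3 in MH34 and GPM1 in B184 against AAC at 0.2/h (edgeR adjusted p = 0.0751 and 0.0735). The minimum of 10 counts lost GPM1 in B184 at 0.2/h and ENO2 in MH34 at 0.1/h against AAC (0.0509 and 0.0522). DESeq2 gained FBA1 in MH34 against AAC at 0.2/h and between rates in MH34 (adjusted p = 0.0271 and 0.0223). ENO2 passed in the rate dependence of B184 against AAC with DESeq2 (0.00806) and with library totals (0.048). Fits of the compared groups only gave 2 genes in place of 5 for MH34 against AAC at 0.2/h and 2 in place of 4 for B184 against AAC at 0.2/h, where these fits rest on 4 libraries. In other comparisons these fits lost TDH2 between rates in AAC (0.58, edgeR adjusted p = 0.0792), TDH1 between rates in MH34 (−1.27, adjusted p = 0.0508), TDH3 in B184 (−0.50, adjusted p = 0.0634) and ENO2 in MH34 (−0.35, adjusted p = 0.0698) against AAC at 0.1/h, and gained FBA1 between rates in MH34 (0.39, adjusted p = 0.0425), and TDH1 and ENO1 between rates in B184 (−0.21 and 0.41, adjusted p = 0.0415 and 0.000103). Leaving out each library in turn, with a lone library assumed to vary like the other groups, gave 2 to 4 genes for B184 and 2 to 7 for MH34 against AAC at 0.2/h, 3 to 6 and 4 to 7 at 0.1/h, 0 for B184 against MH34 at 0.2/h and 7 to 8 at 0.1/h. It gave 6 to 7 between rates in B184, 2 to 5 in MH34, and 4 to 7 in AAC, and for rate dependence 4 to 6 (MH34 against AAC), 1 to 3 (B184 against AAC), and 7 to 8 (B184 against MH34). With library totals, the split in MH34 between rates was 3 higher and 2 lower in place of 2 and 2, and the median of all genes moved to 0.11 for MH34 against AAC at 0.2/h, 0.10 for B184 against MH34 at 0.1/h, 0.24 for the rate dependence of MH34 against AAC, and −0.13 for that of B184 against MH34. Replacing an isozyme by its family sum turned the sign of the log2 fold change in 7 cases, which follows from summing unlike isozymes. Isozyme and sum were both called only for TDH2 and ENO2 in MH34 against AAC at 0.1/h. In the other cases either the isozyme or the sum was not called. For TDH1 between rates the sum had 0.85 in AAC and 1.23 in B184. For TDH2 it had 0.43 in MH34 against AAC at 0.1/h, −0.13 between rates in MH34, and −0.98 in the rate dependence of MH34 against AAC. For ENO2 it had 0.43 in MH34 against AAC at 0.1/h and −0.22 between rates in MH34. The labels do not say whether replicate numbers pair the libraries. Over 15 pairs of groups, the correlation of replicate differences lay between −0.22 and 0.37, with 1 over 0.1. With the replicate number as a block, calls were lost for TDH3 in MH34 and GPM1 in B184 against AAC at 0.2/h (edgeR adjusted p = 0.0542 and 0.0589), for ENO2 and the TDH sum in MH34 against AAC at 0.1/h (0.0551 and 0.0578), and for ENO2 in the rate dependence of MH34 against AAC (0.0503), and the numbers of genes called stayed within 1.5 times. With a minimum of 500 counts, 4 of the 5 genes most like the mean profile were the same, with FSF1 in place of YPL162C.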

Other observations

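The gluconeogenic genes FBP1 and PCK1 were higher than AAC in both evolved strains at both rates. FBP1, the fructose-1,6-bisphosphatase that opposes phosphofructokinase, had 31.7 and 35.3 FPKM in B184, 22.1 and 23.8 FPKM in MH34, and 6.23 and 5.57 FPKM in AAC at 0.2/h, and 132 and 116 FPKM in B184, 137 and 142 FPKM in MH34, and 23.6 and 40.0 FPKM in AAC at 0.1/h. PCK1, phosphoenolpyruvate carboxykinase, had 56.2 and 74.9 FPKM in B184, 60.1 and 69.1 FPKM in MH34, and 15.5 and 14.6 FPKM in AAC at 0.2/h. PCK1 at 0.1/h had 447 and 349 FPKM in B184, 1348 and 1495 FPKM in MH34, and 14.5 and 23.3 FPKM in AAC. For both genes, every library of an evolved strain was above both AAC libraries of its rate. Log2 fold changes of FBP1 over AAC lay between 1.84 (MH34 at 0.2/h) and 2.41 (B184 at 0.2/h), and that of PCK1 was 2.03 in B184 and 1.98 in MH34 at 0.2/h. At 0.1/h, where the evolved cultures had received ethanol, PCK1 was at 4.34 in B184 and 6.32 in MH34 (edgeR adjusted p = 1.88e-06 and 4.63e-08). Of the 7 genes listed for fructose-2,6-bisphosphate and gluconeogenesis (PFK26, PFK27, FBP26, FBP1, PCK1, PYC1, and PYC2), 3 were higher in B184 and 2 in MH34 at 0.2/h, 2 were higher in B184 at 0.1/h, and 2 were higher and 2 lower in MH34 at 0.1/h. Of all genes, 18.4% were higher in B184 and 17.4% in MH34 at 0.2/h, 16.5% were higher in B184 at 0.1/h, and 35.5% were higher and 33.3% lower in MH34 at 0.1/h, so that the count in MH34 at 0.1/h, 4 of 7, was below the 68.8% of all genes called.

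Low-expressed relatives of GPM1 and the enolases were also measured. At 0.2/h, GPM2, GPM3, and ERR3 were higher than in AAC in both evolved strains, with GPM2 at 1.15 in B184 and 1.07 in MH34 (edgeR adjusted p = 0.000828 and 0.00141). At 0.1/h, 1 of these 3 was called higher in each evolved strain, ERR3 in B184 (0.87) and GPM3 in MH34 (0.46), and GPM2 was at −0.32 in B184 and −0.26 in MH34 (edgeR adjusted p = 0.163 and 0.191). Genes called higher made up 18.4% of all genes in B184 and 17.4% in MH34 at 0.2/h. The shares at 0.1/h were 16.5% in B184 and 35.5% in MH34. The enolase-related ERR1 and ERR2 held 0 to 5 and 0 to 7 counts per library and were not tested.

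On the deleted TPI1, 261 and 195 counts remained in B184, 201 and 197 in MH34, and 156 and 179 in AAC at 0.2/h. At 0.1/h, 568 and 637 counts remained in B184, 142 and 132 in MH34, and 412 and 447 in AAC.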
